A study of Mus musculus with 12 samples.

Results

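The type 1 alveolar epithelial genes described here are 7 genes of the deposited count table, chosen by symbol: Ager, Hopx, Aqp5, Rtkn2, Emp2, Clic5 and Akap5. They are 7 of 49585 genes in the table, and all 7 were among the 18556 genes with enough counts to be tested. They were measured by poly(A) RNA sequencing of whole lung from C57BL/6J mice that carried an MO4 melanoma, a mouse melanoma line, under the skin. The 12 libraries formed 4 groups of 3. The aged combination group was 22 months old and was given antibodies against PD-1 and against the IL-21 receptor. The aged anti-PD-1 group was 22 months old and was given anti-PD-1 alone. The aged control group was 22 months old and was given a rat antibody matched for isotype. The young anti-PD-1 group was 2 months old and was given anti-PD-1. All antibodies went into the peritoneum, and the labels give days 3, 7 and 11 after inoculation for anti-PD-1 and control antibody. All mice carried the tumour, and no young group without anti-PD-1 was analysed, so age was compared under anti-PD-1 only.

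Type 1 alveolar cells are the thin, broad cells that line most of the gas exchange surface of the lung. They arise from type 2 cells, the cuboidal cells that make surfactant, when the epithelium is renewed. The transcription factor NKX2-1 and the coactivators YAP and TAZ, which act through TEAD proteins, are known to set up and hold the type 1 state in mouse lung. Ager encodes RAGE, a receptor of the immunoglobulin family that binds S100 proteins and HMGB1 and lies on the basal face of type 1 cells. Aqp5 encodes a water channel of the apical face, and Hopx a small homeodomain protein that does not bind DNA. Emp2 encodes a membrane protein with 4 spans, and Clic5 a protein that links membrane to the cortical actin skeleton through ezrin. Akap5 encodes a scaffold that holds protein kinase A and calcineurin at the membrane, and Rtkn2 a protein that binds small GTPases. Several of these genes are also used outside type 1 cells, among them Hopx in heart and T cells, Rtkn2 in regulatory T cells, Akap5 in neurons and Clic5 in endothelium.

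Promoter sequence was available from RefSeq (GRCm38.p6) for 6 of the 7 genes, with 7 windows in all, since Hopx has 2. Each window ran from 250 bases before to 50 bases after a start site. The windows of 4 genes are shown 5′ to 3′ on the strand of the gene. Akap5 is shown for its drop with age, Emp2 as a further GC box promoter, Hopx for the NK2 motif and Ager as the most abundant member. Capitals mark matches on either strand to the GC box GGGCGG or the NK2 homeobox motif CAAGTG.
Akap5 (chr12:76324641-76324940, plus strand): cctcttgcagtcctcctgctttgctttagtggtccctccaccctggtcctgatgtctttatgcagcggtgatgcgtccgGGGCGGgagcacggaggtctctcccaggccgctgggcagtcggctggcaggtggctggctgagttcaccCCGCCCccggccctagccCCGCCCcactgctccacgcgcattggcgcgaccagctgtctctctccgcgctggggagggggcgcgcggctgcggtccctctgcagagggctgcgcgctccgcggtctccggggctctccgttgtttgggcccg
Emp2 (chr16:10313919-10314218, minus strand): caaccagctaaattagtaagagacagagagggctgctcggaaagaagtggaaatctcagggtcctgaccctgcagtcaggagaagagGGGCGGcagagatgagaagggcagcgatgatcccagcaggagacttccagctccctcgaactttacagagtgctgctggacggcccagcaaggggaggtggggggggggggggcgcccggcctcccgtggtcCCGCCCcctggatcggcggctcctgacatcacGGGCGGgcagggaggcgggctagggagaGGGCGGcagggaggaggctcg
Hopx, the shorter transcript (chr5:77095218-77095517, minus strand): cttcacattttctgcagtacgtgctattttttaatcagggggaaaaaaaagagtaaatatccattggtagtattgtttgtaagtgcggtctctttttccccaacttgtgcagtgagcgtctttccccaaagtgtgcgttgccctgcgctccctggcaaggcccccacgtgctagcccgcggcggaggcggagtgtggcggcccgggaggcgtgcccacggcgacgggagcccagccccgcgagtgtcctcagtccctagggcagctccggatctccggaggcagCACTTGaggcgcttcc
Ager (chr17:34597600-34597899, plus strand): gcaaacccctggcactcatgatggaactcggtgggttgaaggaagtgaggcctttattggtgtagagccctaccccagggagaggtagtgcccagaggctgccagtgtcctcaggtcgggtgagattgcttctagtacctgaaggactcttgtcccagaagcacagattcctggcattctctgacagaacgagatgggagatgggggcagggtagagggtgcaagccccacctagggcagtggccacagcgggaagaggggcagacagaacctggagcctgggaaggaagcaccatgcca
The GC box was found in 4 of the 7 windows, those of Akap5, Aqp5, Clic5 and Emp2, and in 35.9% of 32544 RefSeq promoters. The NK2 homeobox motif was found in 1 window, that of the shorter Hopx transcript, and in 13.5% of all promoters. The TEAD motif CATTCC, the AP-1 motif TGACTCA and the TATA box TATAAA were in none of the 7 windows, against 14.6%, 5.19% and 13.6% of all promoters for these motifs. No motif searched overlapped another in these windows. GC content ran from 53.0% for the longer Hopx transcript to 79.7% for Aqp5.

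In mm10, Hopx lies on chromosome 5 from 77086988 to 77115121 (minus strand) and Aqp5 on chromosome 15 from 99590849 to 99594829 (plus strand). Rtkn2 lies on chromosome 10 from 67979570 to 68059740 (plus strand) and Emp2 on chromosome 16 from 10281749 to 10313968 (minus strand). Clic5 lies on chromosome 17 from 44188572 to 44280168 (plus strand).

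All 7 genes were well above the detection limit in every library, with Rtkn2 in aged combination replicate 2 the lowest at 1808 reads. Levels are given as read counts scaled to library size after TMM (CPM), and between genes as CPM per kilobase of exon. On the scale per kilobase, Ager was the most abundant in young anti-PD-1 lungs at 1791 ± 198, followed by Hopx at 1060 ± 86.3 (SD, n = 3). Emp2 at 157 ± 12.9 and Aqp5 at 153 ± 23.7 per kilobase did not differ beyond their spread. Clic5 at 102 ± 10.5, Akap5 at 74.8 ± 9.83 and Rtkn2 at 47.5 ± 1.14 per kilobase came below them. The bounds of Aqp5 and Clic5 in the count table differ from those in the annotation that gave the lengths, so their places in this order are less sure. Together the 7 genes took 0.434 ± 0.0737% of all counts in aged combination, 0.471 ± 0.121% in aged anti-PD-1, 0.577 ± 0.252% in aged control and 0.916 ± 0.0618% in young anti-PD-1 lungs. In bulk tissue, fewer type 1 cells and less RNA of these genes per cell cannot be told apart.

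Counted reads per library ran from 16021877 to 22058620. Mitochondrially encoded transcripts took 11.5 to 14.9% of counts in aged combination, 7.88 to 11.9% in aged anti-PD-1, 7.32 to 10.4% in aged control and 6.05 to 7.22% in young anti-PD-1 libraries. Counts of same-group libraries differed by more than sampling noise (chi-square over degrees of freedom 9.61 to 48.1), so none was counted as a duplicate. A pair of libraries stood apart within their groups for the type 1 genes. Aged control replicate 1 was at the level of the young libraries for 4 of the 7 genes, and aged anti-PD-1 replicate 3 was the lowest of its group for all 7. A gene is called below at an adjusted p under 0.05 in edgeR's quasi-likelihood test (Benjamini-Hochberg, all 18556 genes). Log2 fold changes are given ± SE with 3 libraries a group. Whether the 3 libraries of a group are separate mice is not in the labels, so a p-value here reflects only how these samples spread, which may be technical.

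**Figure D1:**
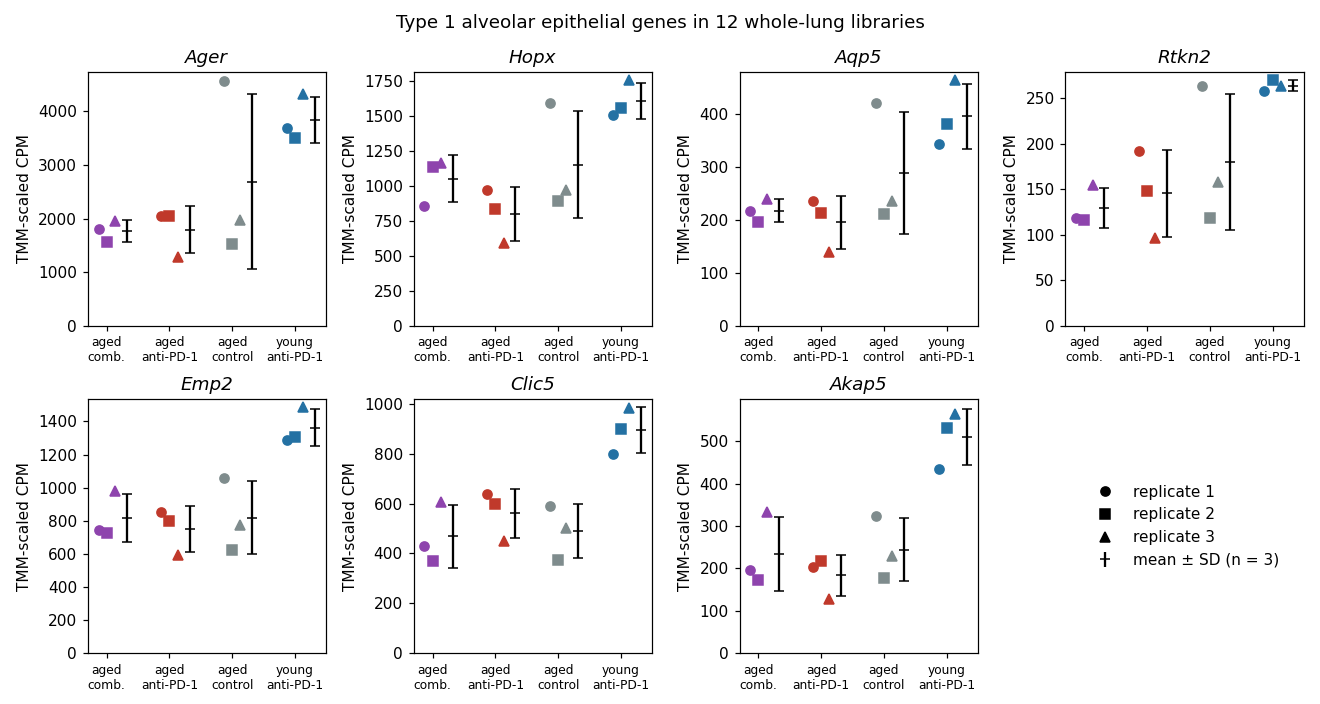
TMM-scaled CPM of each of the 7 genes (y axis, 1 panel a gene, from 0) in the 12 libraries by group (x axis); symbols are replicates, and bars are mean ± SD with n = 3. The 3 young anti-PD-1 libraries lie above all 6 aged anti-PD-1 and aged combination libraries in every panel, while aged control replicate 1 reaches the young level for Ager, Hopx, Aqp5 and Rtkn2.

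The comparison of aged with young mice under the same anti-PD-1 treatment asked how the type 1 genes differ with age. Of the 7 genes, 6 fell and none rose, beside 7.16% of all genes tested called lower and 8.09% called higher. All 7 had every aged library below every young one, as had 19.9% of all genes tested. The median log2 fold change of the 7 genes was -1.01, against -0.01 over all genes tested.

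Ager, the receptor gene, had 2054, 2042 and 1280.1 CPM in aged anti-PD-1 lungs, against 3689, 3503 and 4314 CPM in young anti-PD-1 lungs. The groups did not overlap, and replicate 3 was the lowest of the aged libraries. Its log2 fold change was -1.10 ± 0.33 (edgeR adjusted p 0.0401). That call did not hold on leaving out any 1 of the 6 libraries (edgeR adjusted p 0.0648 to 0.150). Ager lies on chromosome 17 from 34597862 to 34600936 (mm10, plus strand; ENSMUSG00000015452).

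Aqp5, the water channel gene, had 235, 213 and 139 CPM in aged anti-PD-1 lungs, against 344, 382 and 464 CPM in young anti-PD-1 lungs. The groups did not overlap, and replicate 3 was again the lowest of the aged libraries. The log2 fold change of Aqp5 was -1.02 ± 0.25 (edgeR adjusted p 0.0164). Without aged anti-PD-1 replicate 3 or young replicate 3 the call was lost (highest edgeR adjusted p 0.0828).

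Akap5, the kinase scaffold gene, had 204, 219 and 128 CPM in aged anti-PD-1 lungs, against 435, 531 and 565 CPM in young anti-PD-1 lungs. Each young library had more than any aged library by a wide margin. Akap5 had the steepest fold change of the 7 genes, -1.47 ± 0.28 on the log2 scale (edgeR adjusted p 0.00541), or 36.0% of the young mean. It was the only member whose call held on leaving out each of the 6 libraries in turn (highest edgeR adjusted p 0.0283). Akap5 lies on chromosome 12 from 76324891 to 76334153 (mm10, plus strand).

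Hopx, the homeodomain gene, had 969, 831 and 591 CPM in aged anti-PD-1 lungs, against 1509, 1556 and 1756 CPM in young anti-PD-1 lungs. The groups did not overlap, and the 3 young values lay close together. The log2 fold change was -1.01 ± 0.22 (edgeR adjusted p 0.0100), and only leaving out young replicate 3 ended the call (edgeR adjusted p 0.0516). Hopxos, a gene on the opposite strand that overlaps Hopx on chromosome 5, had a log2 fold change of -1.06 ± 0.21 (edgeR adjusted p 0.00600). The library kit keeps strand, but the strand setting of the counting is not given in the sources used here, so reads of this pair cannot be told apart.

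Emp2, the membrane protein gene, had 855, 801 and 591 CPM in aged anti-PD-1 lungs, against 1289.6, 1304 and 1490.1 CPM in young anti-PD-1 lungs. The groups did not overlap. Its log2 fold change was -0.86 ± 0.19 (edgeR adjusted p 0.0104), lost without aged anti-PD-1 replicate 3 or young replicate 3 (highest edgeR adjusted p 0.0557).

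Clic5, the actin-linking gene, had 637, 597 and 449 CPM in aged anti-PD-1 lungs, against 801, 901 and 985 CPM in young anti-PD-1 lungs. The groups did not overlap, but the fold change, -0.67 ± 0.20 on the log2 scale, was the smallest of the 7 (edgeR adjusted p 0.0401). The call held only without aged anti-PD-1 replicate 1, and was lost on leaving out any of the other 5 libraries (highest edgeR adjusted p 0.155).

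Rtkn2, the GTPase-binding gene, had 192, 148 and 96.5 CPM in aged anti-PD-1 lungs, against 257, 270.2 and 264 CPM in young anti-PD-1 lungs. The young libraries were nearly equal and all lay above the aged ones. The log2 fold change was -0.86 ± 0.27 and missed the call (edgeR adjusted p 0.0532), with a 95% interval of -1.45 to -0.26. Rtkn2 was called without aged anti-PD-1 replicate 1 (edgeR adjusted p 0.0302), and DESeq2 and limma-voom called all 7 genes. Gm16212, on the opposite strand within the Rtkn2 locus, had -0.93 ± 0.29 (edgeR adjusted p 0.0486), and the same limit on strand holds.

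Aged anti-PD-1 replicate 3, the lowest of its group for all 7 genes, also had the highest mitochondrial share of the group, at 11.9% against 7.88% and 8.31% in the other 2. Without it, 2 of the 7 genes were called lower in aged anti-PD-1 lungs, and without young replicate 3 only Akap5 was. The part of RNA quality in these levels was not tested.

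Aged combination and aged control lungs were also set against young anti-PD-1 lungs, to order the 4 group levels. In both comparisons age and antibody differ together, and all 3 comparisons with young lungs share the same young libraries. The young group had the highest mean for all 7 genes. In aged combination lungs 6 of the 7 genes were called lower, all but Hopx, beside 6.30% of all genes tested. All 7 again had no overlap with young lungs, beside 17.5% of all genes. In aged control lungs 3 of the 7 were called lower, namely Emp2, Clic5 and Akap5, beside 2.98% of all genes. The same 3 genes had no overlap with young lungs, beside 14.5% of all genes.

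Akap5 was at 196, 172 and 333 CPM in aged combination and at 325, 178 and 229.5 CPM in aged control libraries. Clic5 was at 429, 368 and 608 CPM in aged combination and at 589.9, 374 and 504 CPM in aged control libraries. Each of these values was below all 3 young ones. Against young lungs, Clic5 had a log2 fold change of -0.94 ± 0.20 in aged combination (edgeR adjusted p 0.00923) and of -0.87 ± 0.20 in aged control lungs (edgeR adjusted p 0.0181). Akap5 had -1.13 ± 0.28 in aged combination (edgeR adjusted p 0.0182) and -1.06 ± 0.28 in aged control lungs (edgeR adjusted p 0.0336). Ager had -1.11 ± 0.33 in aged combination (edgeR adjusted p 0.0390), while in aged control lungs it had -0.51 ± 0.32 and was not called (edgeR adjusted p 0.370). Leaving out 1 library left 0 to 4 members called for aged combination against young lungs, with 0 without aged combination replicate 2. Clic5 kept that call without each of the other 5 libraries (edgeR adjusted p 0.0543 without aged combination replicate 2), while Ager lost it without any 1 of the 6 (highest edgeR adjusted p 0.153). For aged control against young lungs, leaving out 1 library left 0 to 7 members called, with 7 without aged control replicate 1.

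**Figure D2:**
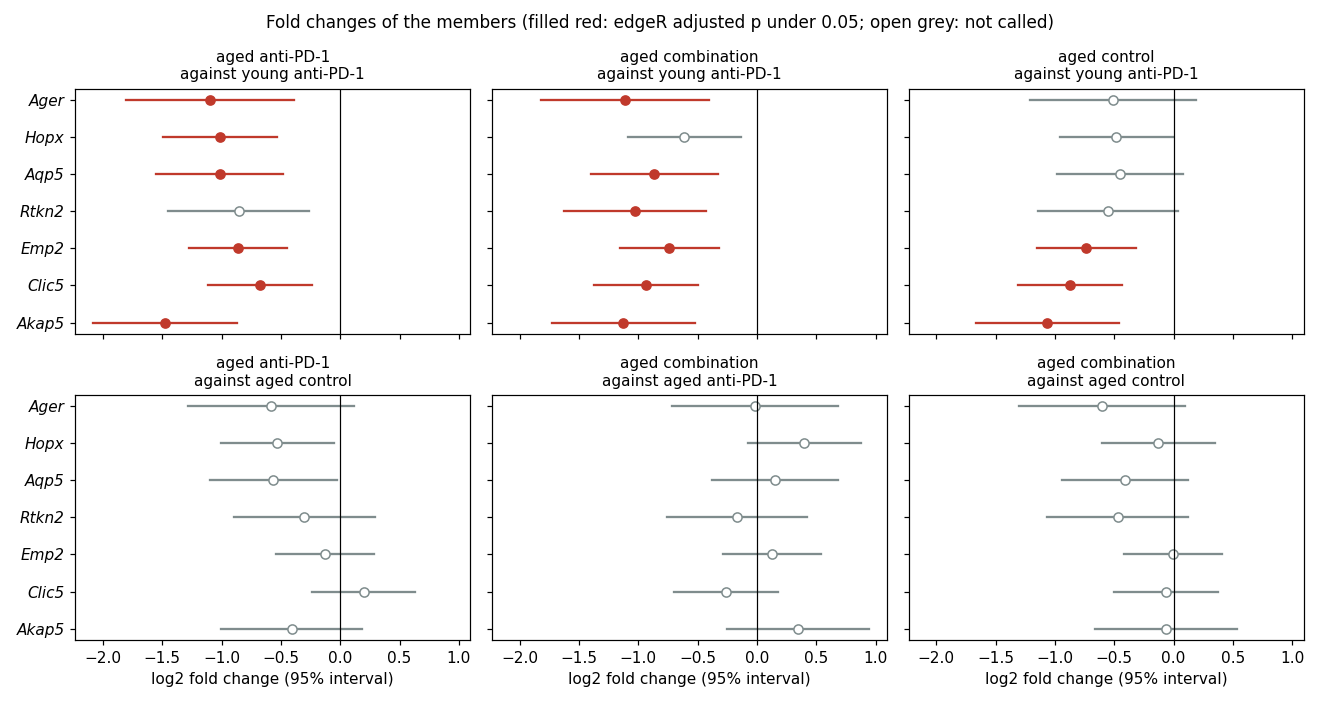
Log2 fold change (x axis) of each gene (y axis) with its 95% interval in the 6 comparisons, 1 panel each; filled red points were called and open grey points were not. The top row sets the 3 aged groups against young anti-PD-1, with 6, 6 and 3 genes called lower, and the bottom row holds the comparisons among aged groups, with none called.

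Aged control replicate 1 stood apart from the other 2 libraries of its group. Ager was at 4559, 1534 and 1977 CPM in the 3 aged control libraries, and the first of these was the highest of all 12. That library was within the young range or above it for Ager, Hopx, Aqp5 and Rtkn2, at 4559, 1591, 421 and 263 CPM. For Emp2, Clic5 and Akap5 it was below all young libraries, at 1058, 589.9 and 325 CPM. Set against the young mean, it ran from 0.26 log2 units above for Ager to 0.64 below for Akap5.

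Without aged control replicate 1, all 7 genes were called lower in aged control than in young lungs. Ager then had a log2 fold change of -1.13 (edgeR adjusted p 0.00255) and Hopx one of -0.79 (edgeR adjusted p 0.0140). Leaving out aged control replicate 2 or 3, or young replicate 2 or 3, left none called in that comparison. A share of 51.8% of the summed CPM of the 7 genes came from Ager in aged control replicate 1, against 36.0 to 44.3% in the other 11 libraries.

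**Figure D3:**
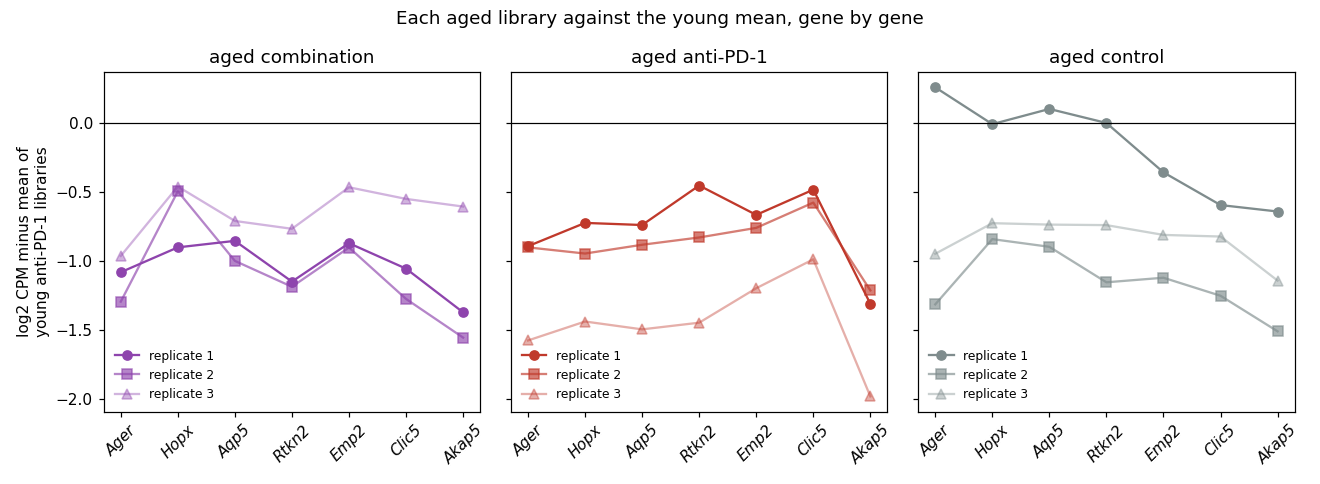
Log2 CPM of each gene less the mean of the 3 young anti-PD-1 libraries (y axis) for the 7 genes (x axis), with 1 line for each aged library and 1 panel for each aged group. Aged control replicate 1 lies at or above 0 for Ager and Aqp5 and within 0.02 of 0 for Hopx and Rtkn2, and aged anti-PD-1 replicate 3 is the lowest line of its panel at every gene.

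Among the aged groups, no type 1 gene was called between anti-PD-1 and control antibody. In aged anti-PD-1 relative to aged control lungs 0 of the 7 genes were called in either direction, beside 5.58% of all genes called lower and 5.34% called higher. At an unadjusted p under 0.05 the edgeR test had 2 members, Hopx and Aqp5, beside 28.9% of all genes, and DESeq2 and limma-voom called none. Hopx was at 969, 831 and 591 CPM in aged anti-PD-1 and at 1591, 893 and 968 CPM in aged control libraries. It averaged 797 ± 191 CPM in aged anti-PD-1 and 1151 ± 383 CPM in aged control lungs (SD, n = 3 each). The groups overlapped, and the log2 fold change was -0.53 ± 0.22 (edgeR adjusted p 0.134). Without aged control replicate 1 it was -0.22 (edgeR adjusted p 0.467). Aqp5 had -0.56 ± 0.25 (edgeR adjusted p 0.151), and -0.19 without that library (edgeR adjusted p 0.557). With all libraries, Clic5 was the only member with a higher mean in aged anti-PD-1 lungs, with 561 ± 99.0 CPM there and 489 ± 109 CPM in aged control lungs. Its log2 fold change was 0.20 ± 0.20, with a 95% interval of -0.24 to 0.63 (edgeR adjusted p 0.551). Without aged control replicate 1 it was 0.35, and those of Ager, Rtkn2 and Emp2 were also above 0, at 0.0293, 0.0787 and 0.10.

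Adding the antibody against the IL-21 receptor to anti-PD-1 gave no call either. In aged combination against aged anti-PD-1 lungs 0 of the 7 genes were called, beside 4.35% of all genes called lower and 4.67% called higher. At an unadjusted p under 0.05 the edgeR test had 0 members as well, and DESeq2 and limma-voom called none. Hopx was at 857, 1136 and 1163 CPM in the aged combination libraries, with 1 of them inside the aged anti-PD-1 range. It averaged 1052 ± 169 CPM in aged combination and 797 ± 191 CPM in aged anti-PD-1 lungs, a log2 fold change of 0.40 ± 0.22 (edgeR adjusted p 0.273). Ager was at 1803, 1555 and 1956 CPM in the aged combination libraries, all inside the aged anti-PD-1 range. It averaged 1772 ± 202 CPM in aged combination and 1792 ± 444 CPM in aged anti-PD-1 lungs. Its log2 fold change was -0.02 ± 0.32, and the 95% interval of -0.72 to 0.68 leaves room for a change of either sign.

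In aged combination against aged control lungs 0 of the 7 genes were called, as were 0% of all genes tested by edgeR. At an unadjusted p under 0.05 there were 0 members and 1228 genes (6.62%). DESeq2 called 76 genes and limma-voom 0, with no member in either. The fold change furthest from 0 was that of Ager, -0.60 ± 0.32 on the log2 scale (edgeR adjusted p 0.816). Without aged control replicate 1 it was 0.01.

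The 7 genes varied together within groups. Over the 12 libraries, deviations of log2 CPM from the group mean correlated between members with r from 0.709 (Hopx and Clic5) to 0.973 (Clic5 and Akap5). All genes in a library share its depth and its piece of tissue, so r is given as a description. Single libraries weigh on it. Deviations ran from 0.29 (Clic5) to 0.93 (Ager) in aged control replicate 1, and from -0.30 (Clic5) to -0.54 (Rtkn2) in aged anti-PD-1 replicate 3. No such r was calculated without these libraries or for other genes. Emp2 had r of 0.889 to 0.951 with each of the other 6 genes.

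Clic5 stood higher relative to Akap5, Emp2, Hopx and Aqp5 in the aged anti-PD-1 group, while its ratios to Ager and Rtkn2 overlapped other groups. The log2 ratio of Clic5 over Akap5 was 1.64, 1.45 and 1.81 in the aged anti-PD-1 libraries, against 0.870 to 1.13 in aged combination, 0.861 to 1.13 in aged control and 0.763 to 0.879 in young anti-PD-1 libraries. All 3 aged anti-PD-1 libraries were above the other 9. Clic5 less Emp2 was likewise highest there, at -0.42, -0.42 and -0.40 on the log2 scale, with the other 9 libraries between -0.98 and -0.53. Hopx less Clic5 was 0.40 to 0.60 in aged anti-PD-1 libraries and at least 0.79 in the other 9. Aqp5 less Clic5 was -1.69 to -1.44 in aged anti-PD-1 libraries and at least -1.34 in the other 9. These ratios were picked after their values were seen and were not tested. Blood endothelial genes, which mark other cells known for Clic5, are given beside this. Of 9 such genes, 6 rose in aged anti-PD-1 relative to aged control lungs and 5 fell in aged combination against aged anti-PD-1 lungs. Leaving out 1 library gave 2 to 8 in the first comparison, lowest without aged anti-PD-1 replicate 2 or aged control replicate 2. It gave 1 to 5 in the second, lowest without aged combination replicate 2. Their summed CPM was 1336 to 1828 in aged combination, 2248 to 2567 in aged anti-PD-1, 1208 to 2034 in aged control and 1943 to 2400.2 in young anti-PD-1 libraries. Pecam1, an endothelial adhesion molecule, rose by 0.73 ± 0.14 on the log2 scale in aged anti-PD-1 relative to aged control lungs (edgeR adjusted p 0.00857). Cldn5, the next most abundant gene of that list, differed little, at 343 ± 70.2 CPM in aged anti-PD-1 and 326 ± 148 CPM in aged control lungs. The part of endothelial RNA in the Clic5 level was not tested.

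**Figure D4:**
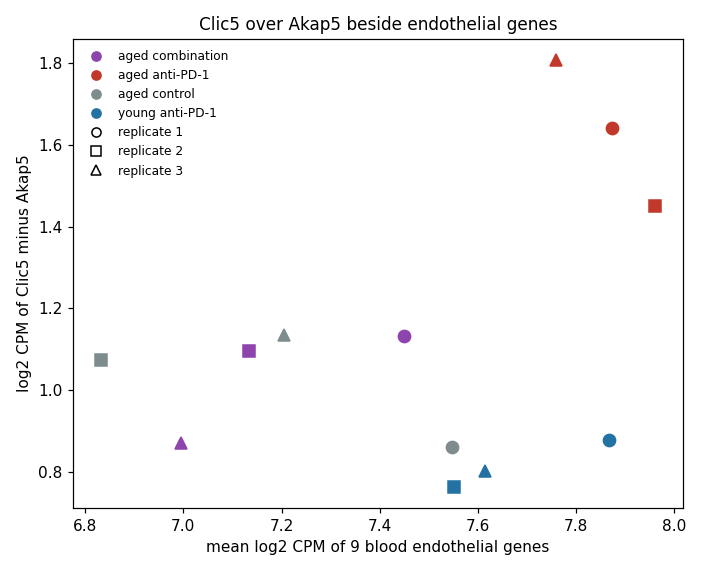
Log2 CPM of Clic5 less that of Akap5 (y axis) beside the mean log2 CPM of 9 blood endothelial genes (x axis), with 1 point a library, coloured by group and shaped by replicate. The 3 aged anti-PD-1 libraries lie above 1.4 on the y axis and the other 9 below 1.2; 1 young library reaches the aged anti-PD-1 range on the x axis with a ratio of 0.879.

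Other genes of type 1 cells fell with age as well. Of 16 tested, 8 were called lower and none higher in aged anti-PD-1 against young anti-PD-1 lungs, with a median log2 fold change of -0.83. Krt7, a keratin of simple epithelium, averaged 299 ± 52.1 CPM in aged and 569 ± 73.6 CPM in young lungs (-0.93 ± 0.21, edgeR adjusted p 0.0104). Cldn18, a tight junction claudin of alveolar epithelium, averaged 467 ± 102 CPM in aged and 913 ± 121 CPM in young lungs (-0.97 ± 0.24, edgeR adjusted p 0.0161). Gprc5a, an orphan receptor of lung epithelium, fell by 1.11 on the log2 scale (edgeR adjusted p 0.0192). Pdpn, the surface protein podoplanin, fell by 0.81 on that scale (edgeR adjusted p 0.0292). Each of these 4 calls was lost without aged anti-PD-1 replicate 3 or young replicate 3, and without either of these none of the 16 was called. Igfbp2, named after its values were seen, did not fall in that comparison (0.05 ± 0.32, edgeR adjusted p 0.942). With all libraries, 15 of the 16 were called lower in aged combination and 3 in aged control against young lungs, where age and antibody differ together.

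The genes most like the 7 in pattern were sought by Pearson r over the 12 libraries with the mean of their standardized log2 CPM, among 13068 genes. Cldn18 (r 0.992), Atp9a (0.991), Gprc5a (0.987), Magi1 (0.986) and Matn4 (0.985) came first, followed by Fads3, Ehd2, Hs2st1, Tmem63b and Arxes2 (r 0.981 to 0.985). The median r of all genes ranked was 0.0195, and the 7 members had r of 0.896 to 0.983 with their own mean. Magi1, a scaffold of tight junctions, averaged 32.5 ± 6.31 CPM in aged combination, 29.0 ± 7.13 in aged anti-PD-1, 37.5 ± 9.02 in aged control and 55.5 ± 3.51 in young anti-PD-1 lungs.

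Regulators of the type 1 state were examined next. Of 14 lineage and Hippo pathway genes, 4 fell and none rose in aged against young anti-PD-1 lungs, and 1 to 5 fell on leaving out 1 library, lowest without young replicate 3. Gata6, a GATA factor of lung epithelium, averaged 25.7 ± 6.25 CPM in aged and 58.7 ± 11.3 CPM in young lungs, a log2 fold change of -1.19 ± 0.19 (edgeR adjusted p 0.00176) that held on leaving out each of the 6 libraries. Gata6 also fell in aged anti-PD-1 relative to aged control lungs, by 0.78 on the log2 scale (edgeR adjusted p 0.0220), a call lost without replicate 2 or 3 of either group. It was the only 1 of the 14 called there. In that comparison 0 of the 7 type 1 members and 0 of 13 type 2 alveolar genes were called, while all 5 mesothelial genes were called lower. Wwtr1, which encodes TAZ, averaged 105 ± 5.09 CPM in aged and 145 ± 12.1 CPM in young lungs (-0.47 ± 0.10, edgeR adjusted p 0.00878; 0.0593 without young replicate 3). The epithelial factor genes Klf5 and Grhl2 fell by 1.14 and 0.56 on the log2 scale (edgeR adjusted p 0.0282 and 0.0364). Both calls were lost without replicate 2 or 3 of either group. Nkx2-1, Yap1 and the 4 Tead genes were not called, but their values differed. Tead1 had -0.75 ± 0.24 (edgeR adjusted p 0.0552) and Nkx2-1 -0.48 ± 0.18 (edgeR adjusted p 0.0822). Log2 fold changes were -0.01 for Yap1, 0.21 for Tead2, -0.33 for Tead3 and -0.29 for Tead4. Against young lungs, 8 of the 14 were called lower in aged combination and 3 in aged control lungs, where age and antibody differ together.

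Of 8 genes that YAP and TAZ are known to drive, 3 fell and none rose in aged against young anti-PD-1 lungs. Ptpn14, a phosphatase that binds YAP, fell by 0.63 (edgeR adjusted p 0.0171) on the log2 scale. Ajuba, a LIM protein of the Hippo pathway, fell by 0.78 (edgeR adjusted p 0.0234) and Cyr61, a matricellular protein gene, by 0.73 (edgeR adjusted p 0.0277) on that scale. Without aged anti-PD-1 replicate 3, or young replicate 2 or 3, none of the 8 was called.

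The ligands of RAGE were set beside its gene Ager. Of 5 genes for ligands and the RAGE effector Diaph1, none was called between aged and young anti-PD-1 lungs. S100a9, a calgranulin made mainly by neutrophils, averaged 824 ± 129 CPM in aged combination, 326 ± 58.3 in aged anti-PD-1, 863 ± 142 in aged control and 216 ± 65.7 in young anti-PD-1 lungs. It fell in aged anti-PD-1 relative to aged control lungs (-1.40 ± 0.21, edgeR adjusted p 0.00472) and rose in aged combination against aged anti-PD-1 lungs (1.34 ± 0.21, edgeR adjusted p 0.00541). Its partner S100a8 averaged 492 ± 87.1 CPM in aged combination, 199 ± 27.6 in aged anti-PD-1, 522 ± 108 in aged control and 128 ± 47.4 in young anti-PD-1 lungs. S100a8 fell by 1.39 on the log2 scale in aged anti-PD-1 relative to aged control lungs (edgeR adjusted p 0.00745). It rose in aged combination against aged anti-PD-1 lungs (1.30 ± 0.25, edgeR adjusted p 0.0106; 0.0613 without aged combination replicate 2). S100b, named after its values were seen, was also called in both of these comparisons (log2 fold changes -0.95 ± 0.23 and 0.98 ± 0.23), so 3 of the 5 moved in each. Its level was far lower, at 3.96 ± 0.589 CPM in aged combination, 2.01 ± 0.359 in aged anti-PD-1, 3.88 ± 0.640 in aged control and 3.26 ± 0.548 in young anti-PD-1 lungs. Both S100b calls were lost without aged anti-PD-1 replicate 1 or 3, among others (highest edgeR adjusted p 0.0814 and 0.0812).

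Of 9 genes for alveolar water and ion transport, 2 fell and none rose in aged against young anti-PD-1 lungs. Scnn1a, the alpha subunit of the epithelial sodium channel, averaged 222 ± 47.8 CPM in aged and 440.5 ± 79.7 CPM in young lungs (-0.99 ± 0.23, edgeR adjusted p 0.0127), a call lost without replicate 3 of either group. Cftr, the chloride channel gene, averaged 3.49 ± 0.453 CPM in aged and 7.86 ± 1.18 CPM in young lungs (-1.17 ± 0.23, edgeR adjusted p 0.00555), with the call held without any 1 library of the 6. The other aquaporin genes of the list, Aqp1, Aqp3 and Aqp4, were not called in that comparison. Aqp1, a water channel of endothelial cells, fell in aged combination against aged anti-PD-1 lungs (-0.69 ± 0.13, edgeR adjusted p 0.00830), a call held without any 1 library of the 6, and in aged combination against young lungs (-0.51 ± 0.13, edgeR adjusted p 0.0168). The second call was lost without replicate 1 or 2 of the young or replicate 2 or 3 of the aged combination group, and Aqp1 was singled out after its values were seen.

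Among 15 paralogs and binding partners of the 7 proteins, 4 fell in aged against young anti-PD-1 lungs. Leaving out 1 library gave 2 to 5 lower, lowest without replicate 3 of either group or aged anti-PD-1 replicate 2. Rtkn, the paralog of Rtkn2, averaged 20.1 ± 1.46 CPM in aged and 34.8 ± 1.13 CPM in young lungs (-0.79 ± 0.12, edgeR adjusted p 0.00137). Clic3, a paralog of Clic5, averaged 101 ± 20.6 CPM in aged and 213 ± 16.6 CPM in young lungs (-1.08 ± 0.23, edgeR adjusted p 0.00852). Prkar2b, a regulatory subunit of protein kinase A, rose by 0.75 ± 0.17 with age (edgeR adjusted p 0.0128; 0.0605 without young replicate 3).

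Type 2 alveolar genes fell beside the type 1 genes. Of 13 tested, 13 fell in aged against young anti-PD-1 lungs, with a median log2 fold change of -0.75, and 7 to 12 were called on leaving out 1 library, lowest without aged anti-PD-1 replicate 2 or young replicate 2 or 3. Lyz1, a lysozyme of mouse type 2 cells, averaged 131 ± 6.33 CPM in aged and 413 ± 18.8 CPM in young lungs (-1.65 ± 0.18, edgeR adjusted p 0.000311). Lamp3, a protein of lamellar bodies, fell by 1.01 on the log2 scale (edgeR adjusted p 0.00211). Etv5, a transcription factor that maintains type 2 cells, fell by 0.88 (edgeR adjusted p 0.00469), and Hc, which encodes complement C5, by 1.08 (edgeR adjusted p 0.00289) on that scale. The mean log2 CPM of the 7 type 1 genes less that of the 13 type 2 genes was -0.10 ± 0.30 in aged combination, -0.12 ± 0.32 in aged anti-PD-1, 0.20 ± 0.49 in aged control and 0.08 ± 0.15 in young anti-PD-1 lungs, and all groups overlapped. Aged control replicate 1 was the highest of the 12 in this difference, at 0.76. Its type 2 mean of 8.83 was within the range of the other aged libraries (8.73 to 9.15) and below the young ones (9.48 to 9.84).

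**Figure D5:**
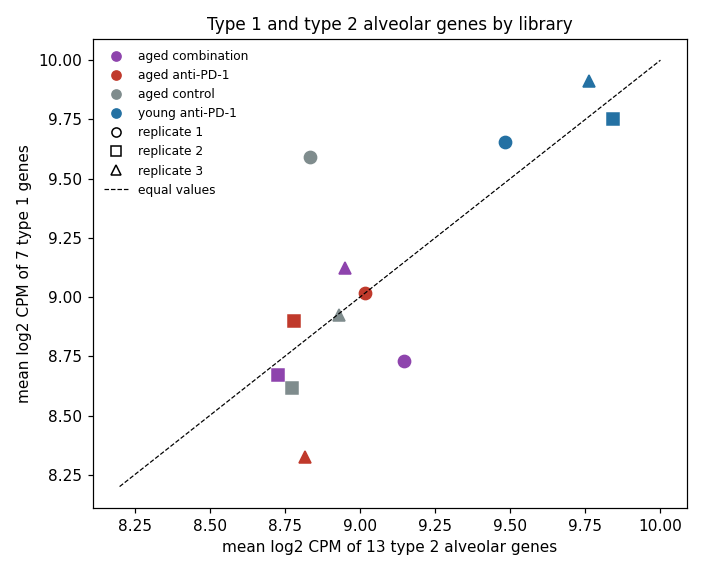
Mean log2 CPM of the 7 type 1 genes (y axis) against that of 13 type 2 alveolar genes (x axis), with 1 point a library and a dashed line where both are equal. The 3 young anti-PD-1 libraries lie at the upper right, and aged control replicate 1 has a type 1 mean of 9.59 with a type 2 mean of 8.83.

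Markers of other cells gave the following values in aged against young anti-PD-1 lungs. Of 10 genes of the transitional state between type 2 and type 1 cells 5 fell, with the keratin genes Krt8 at -1.11 ± 0.22 (edgeR adjusted p 0.00643) and Krt18 at -1.10 ± 0.22 (edgeR adjusted p 0.00685). The growth factor gene Hbegf fell by 0.87 (edgeR adjusted p 0.00553) and the keratin gene Krt19 by 0.75 (edgeR adjusted p 0.0124) on the log2 scale, the last lost without replicate 3 of either group. Leaving out 1 library gave 3 to 6 of the 10, lowest without aged anti-PD-1 replicate 3. Against young lungs, 0 of the 10 were called in aged control and 4 were lower in aged combination lungs. Relative to aged control lungs, 5 were called lower in aged anti-PD-1 lungs. Krt8 averaged 293 ± 16.8 CPM in aged combination, 230 ± 46.8 in aged anti-PD-1, 455 ± 46.2 in aged control and 495 ± 199 in young anti-PD-1 lungs. In aged against young anti-PD-1 lungs all 5 mesothelial genes fell, led by Msln, the mesothelin gene (-1.60 ± 0.20, edgeR adjusted p 0.000504), with 3 to 5 called on leaving out 1 library, lowest without aged anti-PD-1 replicate 3. Their summed CPM was 122 to 159.8 in aged combination, 83.1 to 118 in aged anti-PD-1, 207 to 348 in aged control and 211 to 355 in young anti-PD-1 libraries. Airway epithelial genes fell in 2 of 7 cases, with Tppp3 of ciliated cells at -0.90 ± 0.14 (edgeR adjusted p 0.00164) and the secretory gene Scgb3a2 at -0.71 ± 0.20 (edgeR adjusted p 0.0336). Foxj1, also of ciliated cells and named after its values were seen, was not called (-0.10 ± 0.19, edgeR adjusted p 0.772). The Scgb3a2 call was lost without aged anti-PD-1 replicate 1 or 3, or young replicate 2 or 3. Of 4 squamous epithelial genes tested 3 fell, with a summed CPM of 7.53 to 13.6 in aged combination, 2.36 to 5.46 in aged anti-PD-1, 9.14 to 20.7 in aged control and 16.8 to 35.6 in young anti-PD-1 libraries.

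None of 9 blood endothelial and none of 6 fibroblast genes was called in aged against young anti-PD-1 lungs. The most abundant endothelial genes were Pecam1 (0.39 ± 0.14, edgeR adjusted p 0.0752) and Cldn5 (-0.05 ± 0.26, edgeR adjusted p 0.928). Those of the fibroblast list were Dcn (-0.24 ± 0.14, edgeR adjusted p 0.279) and Col1a2 (-0.31 ± 0.20, edgeR adjusted p 0.319). Of 7 cardiac muscle genes, Nppa, an atrial peptide gene, rose (1.48 ± 0.33, edgeR adjusted p 0.0131; 0.0540 without young replicate 2). Of 6 T and NK cell genes, Cd4 and Cd3e rose, by 1.18 ± 0.35 (edgeR adjusted p 0.0393) and 0.92 ± 0.29 (edgeR adjusted p 0.0499). The rest of that list was not called and went both ways. Log2 fold changes were 0.80 for Cd8a and 0.47 for Nkg7, but -0.56 for Gzmb and -0.62 for Ncr1. On leaving out 1 library, 0 to 3 genes of that list were called higher. The summed CPM of the T and NK cell genes was 58.3 to 80.7 in aged combination, 56.3 to 108 in aged anti-PD-1, 37.0 to 116 in aged control and 47.2 to 83.0 in young anti-PD-1 libraries. The part of these cell types in the type 1 gene levels was not tested.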

How the data were processed

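Whole-lung RNA of 12 libraries was profiled with a directional poly(A) kit, per the labels' protocols. The authors deposited raw read counts per gene, 1 column a library, with no normalization per the file header. The submitters' processing notes name bcl2fastq 1.8.4, Trimmomatic, HISAT2, featureCounts 1.6.3 and mm10; options, annotation release and strand setting are not given in the sources used here. Gene lengths are exon unions from GENCODE M21, whose bounds for Aqp5 and Clic5 differ from those of the count table.

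Genes were filtered by edgeR's filterByExpr by group (minimum count 10, minimum total 15) and scaled by TMM. A robust edgeR quasi-likelihood model with 4 group means was fitted to all 12 libraries (edgeR 4.0.16, limma 3.58.1, R 4.3.3; 8 residual degrees of freedom). The SE is the absolute log2 fold change over the square root of F. An exact permutation test of 3 against 3 libraries cannot go below 0.1. The script was tested on simulated counts. Alternatives were leaving out each library, a replicate block, fits of 2 groups, no filter or a mean CPM of at least 1, RLE factors or library totals, factors from genes other than immunoglobulin, haemoglobin and mitochondrial ones, limma-voom, and DESeq2 1.42.0.

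The members and gene lists were chosen with earlier results of these data known. Named genes are the 7 members and the 10 genes most like them. In each list, up to 4 called genes with the smallest adjusted p in aged against young anti-PD-1 lungs are named. Where none was called, the 2 most abundant are named. Of the mesothelial list only Msln is named, and of the squamous list none. Others are named where said. A listed paralog or partner is left out of the text. Figures used Python 3.11.15 and matplotlib 3.10.9.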

Additional observations from a re-analysis of the deposited data

How the results depend on the processing

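All 7 genes kept a negative fold change in each of the 3 comparisons with young lungs under every alternative run. Aged against young anti-PD-1 lungs had 6 members called; without a filter it had 3, with the replicate block or only the 2 groups 7, under the other settings 5 to 7, and leaving out 1 library gave 1 to 6. Aged combination against young lungs had 6; without a filter 2, under the other settings 6 or 7, and leaving out 1 library 0 to 4. Aged control against young lungs had 3; with the replicate block or without a filter 2, under the other settings 3, and leaving out 1 library 0 to 7. The cause of these shifts was not tested. Of all genes, 6.14 to 11.8% were called in aged against young anti-PD-1 lungs on leaving out 1 library, against 15.3% with all; in aged control against young lungs 12.8% were called without aged control replicate 1, against 8.50% with all. No member was called among aged groups under any alternative. Replicate numbers were not taken as pairs, since residuals of same-numbered libraries had a median r of -0.0120 (-0.169 to 0.171 over 18 pairs).

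Some uncalled fold changes among aged groups turned sign. In aged combination against aged anti-PD-1 lungs, Ager was 0.0123 with limma-voom, and with library totals alone, which moved the median of all genes to -0.21, Aqp5 was -0.0482 and Emp2 -0.0760. In aged combination against aged control lungs, Emp2 was 0.0063 with DESeq2 or RLE factors, 0.0199 with limma-voom, 0.0121 with scaling without immunoglobulin, haemoglobin and mitochondrial genes, 0.0136 with the replicate block and 0.0104 with only the 2 groups. Leaving out 1 library gave these ranges. In aged anti-PD-1 relative to aged control lungs they were -0.87 to 0.0293 for Ager, -0.56 to 0.0787 for Rtkn2 and -0.29 to 0.10 for Emp2. In aged combination against aged anti-PD-1 lungs they were -0.21 to 0.0922 for Ager, -0.39 to 0.0832 for Rtkn2, -0.0414 to 0.31 for Aqp5 and -0.0296 to 0.23 for Emp2. In aged combination against aged control lungs they were -0.88 to 0.0122 for Ager, -0.28 to 0.18 for Hopx, -0.17 to 0.22 for Emp2, -0.30 to 0.0929 for Clic5 and -0.41 to 0.20 for Akap5.

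Over all genes, 2830 were called in aged against young anti-PD-1 lungs, and 1160 to 3742 over the alternatives. The count was 2025 (607 to 2999) for aged anti-PD-1 against aged control, 1674 (260 to 3038) for aged combination against aged anti-PD-1 and 0 (0 to 76) for aged combination against aged control. It was 1577 (728 to 2419) for aged control and 2550 (1182 to 3611) for aged combination against young lungs. Leaving out 1 library moved the called type 1 genes of the other list between 0 and 9, against 8 with all libraries. With 3 libraries a group, an uncalled member may still differ by up to the bounds of its interval.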
